A study of Homo sapiens with 6 samples.

Results

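The leukocyte integrin genes of EoL-1 cells are described here, namely ITGAL, ITGAM, ITGAX, ITGB2, ITGA4, ITGA5, ITGB1 and ITGB7. They were chosen by name, as the alpha and beta chains that white blood cells are best known for, and they make up 8 of 26 integrin genes and 8 of 35052 genes in the deposited RNA-seq data. All 8 had enough reads to enter the tests. EoL-1 is an established human cell line that came from a leukaemia of the eosinophil lineage. The series held 3 libraries from ATF3/JUN double knockout cells and 3 from JUN knockout cells, all from polyA RNA of cells in plain culture, with no further agent named. Both groups were labelled as lacking JUN, so the comparison bears on the added loss of ATF3, and no unedited cells were analysed. JUN and ATF3 are leucine zipper transcription factors that can bind DNA together. The protocol text names CRISPR/Cas9 for the ATF3 knockout only, and the JUN knockout is known from the genotype label. The deposited files name a separate clone code for each library, and libraries of both genotypes with the same replicate number share the JUN clone code. Each library may therefore stand for 1 clone, and the p-values reflect no more than the variation among these 6 libraries.

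Integrins are adhesion receptors built from 1 alpha and 1 beta chain, and a chain reaches the cell surface only in such a pair. On leukocytes the beta 2 chain (ITGB2, CD18) joins ITGAL (CD11a) to form LFA-1, which binds ICAMs, ITGAM (CD11b) to form the complement receptor Mac-1, or ITGAX (CD11c) to form another complement receptor. The alpha 4 chain (ITGA4) pairs with beta 1 (ITGB1) as VLA-4, which binds VCAM-1 and fibronectin and serves eosinophils in entering inflamed tissue, or with beta 7 (ITGB7) as a receptor for MAdCAM-1 of the gut. The alpha 5 chain (ITGA5) pairs with beta 1 as the classical fibronectin receptor. Levels of mRNA do not show which pairs formed, since no protein was measured.

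ITGAL, ITGAM and ITGAX lie on the plus strand of chromosome 16 (GRCh38, GENCODE release 29). ITGAL (ENSG00000005844) spans 30472658 to 30523185, ITGAM (ENSG00000169896) spans 31259967 to 31332892 and ITGAX (ENSG00000140678) spans 31355134 to 31382997. ITGAM and ITGAX are neighbours 22242 bases apart, and ITGAL lies 736782 bases from ITGAM. ITGB2 (ENSG00000160255) is on chromosome 21 at 44885953 to 44931989, minus strand. ITGA4 (ENSG00000115232) is on chromosome 2 at 181457202 to 181536187, plus strand, and ITGB1 (ENSG00000150093) is on chromosome 10 at 32900319 to 33005792, minus strand. ITGA5 (ENSG00000161638) and ITGB7 (ENSG00000139626) share the minus strand of chromosome 12, at 54395261 to 54419460 and at 53191318 to 53207307.

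Since JUN and ATF3 proteins bind the AP-1 element TGACTCA and the related cyclic AMP response element TGACGTCA, the RefSeq promoters (GRCh38.p14, 250 bases before to 50 bases after the gene start) were searched for these letters on both strands. RefSeq entries were used for ITGA4, ITGA5, ITGAM, ITGB1 and ITGB7. TGACTCA occurred in 1 of these 5 genes, ITGA5, and in 1738 of 35116 promoters (4.95%). TGACGTCA occurred in 0 of the 5 and in 649 of 35116 promoters (1.85%). The 3 windows shown, each 100 bases before the start and the first 20 bases from it, are the match in ITGA5 and, for contrast, ITGAM and ITGB7, members whose mRNA varied more between libraries. Capitals mark the motif, which reads TGAGTCA on the strand of the gene, begins 6 bases before the start and ends on its first base. The windows are chr12:54419247-54419366 (minus strand), chr16:31259875-31259994 (plus strand) and chr12:53207232-53207351 (minus strand). The starts used here are those of the RefSeq entries, which differ from the GENCODE bounds given above. The whole ITGA5 window lies inside the GENCODE span of that gene, and the ITGAM and ITGB7 windows lie partly inside theirs.
ITGA5: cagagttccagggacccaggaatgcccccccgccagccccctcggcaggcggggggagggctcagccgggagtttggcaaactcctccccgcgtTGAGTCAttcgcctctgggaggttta
ITGAM: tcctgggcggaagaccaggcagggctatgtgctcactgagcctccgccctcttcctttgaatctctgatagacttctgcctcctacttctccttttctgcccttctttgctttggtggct
ITGB7: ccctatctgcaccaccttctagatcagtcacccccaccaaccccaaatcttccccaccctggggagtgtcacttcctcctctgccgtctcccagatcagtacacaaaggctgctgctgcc
A match is a run of letters and not a measured binding site, and windows without one say nothing about the factors.

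The libraries held 26146998 to 29567970 estimated reads. ATF3 mRNA was at 13.1, 10.0 and 7.63 CPM (counts scaled for library size) in double knockout libraries 1, 2 and 3, against 20.2, 13.7 and 8.89 CPM in JUN knockout libraries 1, 2 and 3. JUN mRNA was at 13.8, 16.6 and 25.7 CPM in the double knockout libraries and at 13.2, 27.2 and 24.6 CPM in the JUN knockout libraries. The groups overlapped for both targeted genes. Within pairs of the same number, ATF3 was lower in the double knockout library each time (log2 fold change -0.48, edgeR adjusted p = 0.931). JUN was lower there at number 2 and higher at numbers 1 and 3. Neither level checks the labels, since an edited gene can still be transcribed. By a chi-square of counts per gene, double knockout libraries 1 and 2 and JUN knockout library 1 lay at 12.5 to 22.4 from each other, and double knockout library 3 and JUN knockout libraries 2 and 3 at 13.7 to 20.3. Pairs across these 2 sets of libraries lay at 30.5 to 72.6, so the libraries did not divide by genotype. Of 12 eosinophil markers, RNASE2 and RNASE3, the ribonucleases of eosinophil granules, averaged at least 1 TPM. EPX, PRG3, CLC and IL5RA were at 0 in all 6 libraries, and 10 of the 12 eosinophil markers stayed under 1 TPM in every library. Of these markers 4 were tested between genotypes, 3 above 0 and 1 below, of the T and NK cell markers 4 (3 above, 1 below), of the B cell markers 2 (1 above, 1 below), and of the mast cell and basophil or erythroid and megakaryocyte markers 0, with 0 called in any of them.

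ITGAL was the most abundant member and ITGAX the least. Levels between genes are given in TPM, an abundance scaled for transcript length. A short transcript gains a high TPM from few reads, so the level is also given for coding transcripts of at least 2000 bases alone, a measure chosen after the data were seen. On these long coding transcripts ITGAL averaged 153 TPM over the 6 libraries (range 121 to 205), and ITGB2 averaged 74.4 TPM (65.7 to 86.2). ITGA4 averaged 58.3 TPM (51.5 to 70.4) and ITGA5 31.4 TPM (27.0 to 34.7). Below them ITGB1 averaged 16.97 TPM (12.97 to 22.0) and ITGB7 6.76 TPM (4.34 to 9.94). ITGAM averaged 2.21 TPM (1.32 to 3.90) and ITGAX 0.516 TPM (0.236 to 0.871). Each gene was above the next in this order in 6 of 6 libraries, and the ranges overlapped for ITGB2 and ITGA4 only.

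With all transcripts of a gene summed, the order of the means was the same, but neighbours were less well separated. ITGAL averaged 280.0 TPM, ITGB2 106 TPM and ITGA4 106 TPM, and ITGB2 was above ITGA4 in 4 of 6 libraries. Further down, ITGA5 averaged 47.3 TPM, ITGB1 20.4 TPM, ITGB7 12.5 TPM, ITGAM 3.36 TPM and ITGAX 1.39 TPM. The ranges of ITGB1 and ITGB7, of ITGB7 and ITGAM, and of ITGAM and ITGAX overlapped on this scale, and ITGAM was above ITGAX in 5 of 6 libraries. The order of ITGB2 against ITGA4 is thus not settled by these data.

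**Figure D1:**
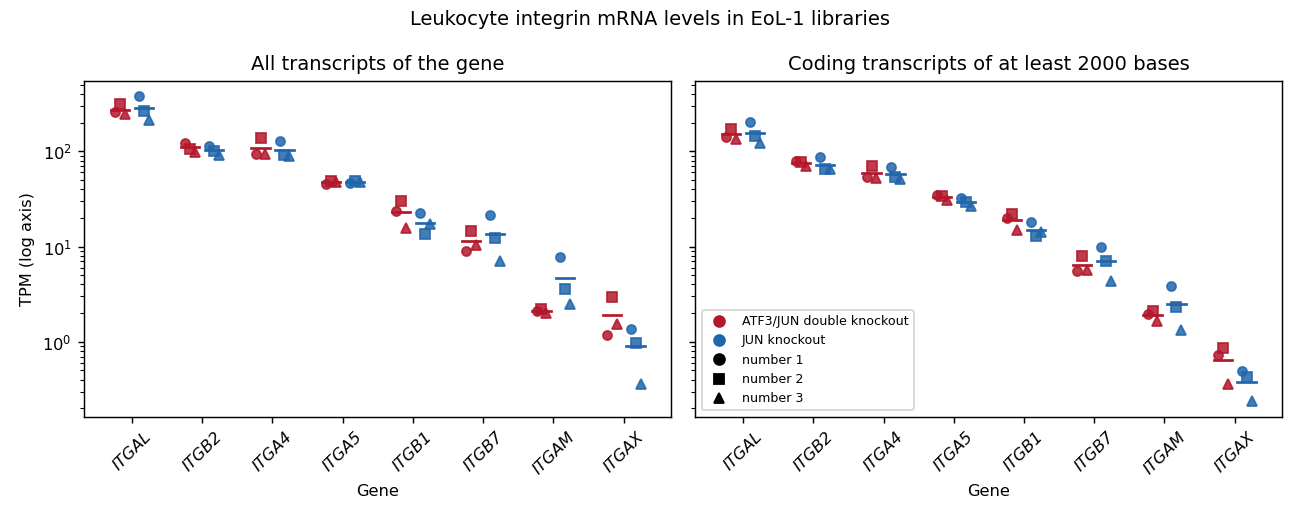
Level of each leukocyte integrin gene (TPM, log axis) in the ATF3/JUN double knockout (red, left of each pair) and the JUN knockout (blue, right), with all transcripts summed (left panel) or coding transcripts of at least 2000 bases (right panel). Each point is 1 library, its shape gives the replicate number and the line is the group mean. ITGAL lies highest and ITGAX lowest in every library except that ITGAX lies above ITGAM in 1 library when all transcripts are summed.

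The share of a gene that lay on long coding transcripts differed between members. It was 98.3% of the estimated reads for ITGB1, 97.8% for ITGAM, 93.9% for ITGAL, 92.5% for ITGA5 and 91.0% for ITGA4 over the 6 libraries pooled. It was lower for ITGB2 (88.5%), ITGB7 (84.4%) and ITGAX (63.3%). As shares of TPM the same figures were 83.0% for ITGB1 and 37.0% for ITGAX, with the other members between them. For ITGAX, 28.8% of the reads were assigned to ITGAX-207, a transcript with a retained intron of nearly the same length as the coding one.

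ITGAE, the alpha chain that joins beta 7 on T cells of epithelia, shows why the transcripts matter. It was listed at 29.4, 29.4 and 33.8 TPM in the double knockout libraries and at 28.5, 33.8 and 37.3 TPM in the JUN knockout libraries, above ITGB1 in all but 1 library. Nearly all of it lay on the non-coding transcripts ITGAE-207, ITGAE-202 and ITGAE-208. The long coding transcript was listed at 0 in all 3 double knockout libraries and at 1.11, 1.10 and 1.08 estimated reads in the JUN knockout libraries. Of the other alpha chains that join beta 1, ITGA7, the laminin receptor chain of muscle, was the most abundant, with 5.15, 5.59 and 3.68 TPM on long coding transcripts in the double knockout, against 5.18, 4.08 and 3.07 TPM in the JUN knockout. Its groups overlapped. Of the 18 further integrin chains, 14 stayed under 1 TPM in every library, and ITGB3 and ITGB6 were at 0. Between genotypes, 9 of the 18 were tested, 4 above 0 and 5 below, with a median of -0.11 and 0 called.

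**Figure D2:**
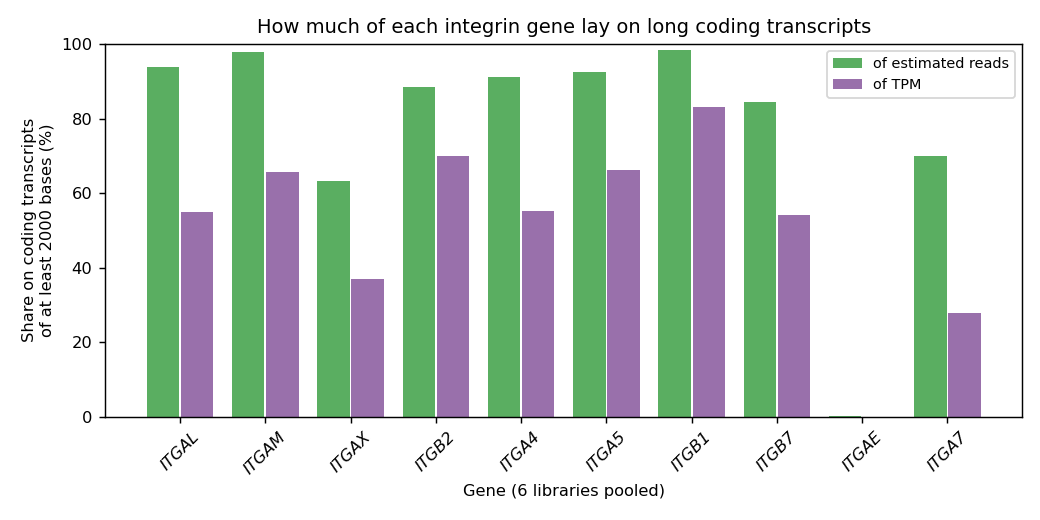
Share (%) of each integrin gene that lay on coding transcripts of at least 2000 bases, 6 libraries pooled, as a share of estimated reads (green) and of TPM (purple). ITGB1 has 98.3% of reads there, ITGAX 63.3% and ITGAE close to none.

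Set beside their beta chain, the alpha chains of the beta 2 family were in excess in every library. The summed level of ITGAL, ITGAM and ITGAX on long coding transcripts was 1.81, 2.27 and 1.95 times that of ITGB2 in double knockout libraries 1, 2 and 3, against 2.43, 2.21 and 1.87 times in JUN knockout libraries 1, 2 and 3. JUN knockout library 1 had the highest ratio and double knockout library 1 the lowest, and the groups overlapped. ITGAL held 97.9% to 98.7% of the 3 alpha chains, ITGAM 1.08% to 1.86% and ITGAX 0.192% to 0.501%. By mRNA level, the likely beta 2 pair of these cells was thus ITGAL with ITGB2.

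The chains that join beta 1 and beta 7 were also weighted to the alpha side. On long coding transcripts, ITGA4 and ITGA5 together were at 3.48, 3.47 and 4.10 times the sum of ITGB1 and ITGB7 in the double knockout libraries, against 3.61, 4.13 and 4.24 times in the JUN knockout libraries. The groups overlapped, with the lowest ratios in double knockout libraries 1 and 2. With all transcripts summed, the ratios were 4.27, 4.20 and 5.37 in the double knockout libraries and 3.98, 5.43 and 5.60 in the JUN knockout libraries, and JUN knockout library 1 was then the lowest. Of the beta chains that ITGA4 can join, ITGB1 was above ITGB7 in all 6 libraries on both scales. ITGB1 also pairs with ITGA5, so these levels do not show how much of it was open to ITGA4. ITGA4 itself was above ITGA5 in all 6.

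**Figure D3:**
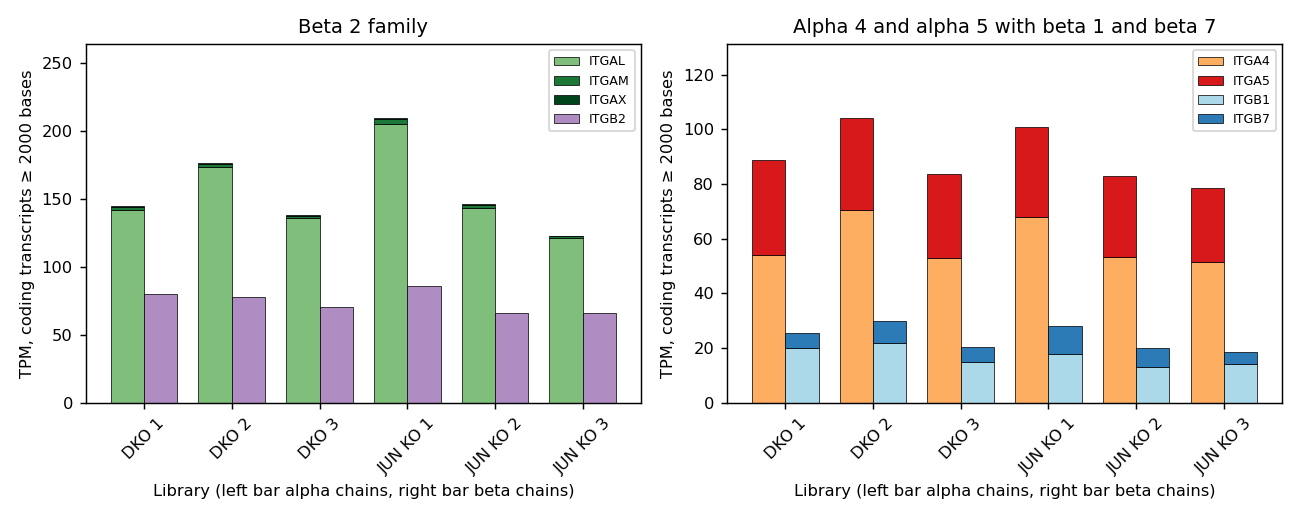
Stacked level (TPM on coding transcripts of at least 2000 bases) of alpha chains (left bar) and beta chains (right bar) in each library, double knockout (DKO) libraries first and JUN knockout (JUN KO) libraries after them. ITGAL fills nearly the whole alpha bar of the beta 2 family, and the alpha bar is the higher one in all 6 libraries of both panels.

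The genotypes were compared with edgeR on estimated counts summed per gene. No member differed past the threshold: 0 of 8 were called at an adjusted p under 0.05, in a comparison that called 0 of 12954 genes (0%). At an unadjusted p under 0.05, edgeR had 753 genes, among them 0 of the 8 members. With the replicate number as a block it had 1268 such genes, among them 2 of the 8 members, ITGAX (edgeR adjusted p = 0.339) and ITGB1 (edgeR adjusted p = 0.506), and again 0 calls. DESeq2 called 71 of 12949 genes (0.548%) and 0 of the 8 members. The log2 fold changes, double knockout minus JUN knockout, were above 0 for 5 members and below 0 for 3, with a median of 0.05 beside 0.00 over all genes tested. The CPM ranges of the groups did not overlap for 1 of the 8 members, ITGA5, and did not overlap for 12.3% of all genes tested. In bulk RNA, fewer cells of a kind and less RNA per cell cannot be told apart.

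Among the beta 2 chains, ITGAL, the adhesion chain of LFA-1, was at 859, 1001 and 849.9 CPM in double knockout libraries 1, 2 and 3, against 1160.1, 898 and 768 CPM in JUN knockout libraries 1, 2 and 3. JUN knockout libraries held both the highest and the lowest value, so the double knockout lay within the range of the JUN knockout. The fold change was -0.06 on the log2 scale (SE 0.157, edgeR adjusted p = 0.984). Within replicate numbers 1, 2 and 3 the log2 ratios were -0.43, 0.16 and 0.15, and without JUN knockout library 1 the fold change was 0.12. Its direction thus rested on that library.

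ITGB2, the shared beta 2 chain, was at 282, 247 and 249 CPM in the double knockout libraries, against 265, 244 and 227 CPM in the JUN knockout libraries. It was higher in the double knockout library of all 3 pairs with the same number, but the groups overlapped. Its log2 fold change was 0.08 (SE 0.0945, edgeR adjusted p = 0.968).

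ITGAM, the alpha chain of Mac-1 and a marker of maturing myeloid cells, was at 10.2, 10.4 and 9.01 CPM in the double knockout libraries, against 19.7, 12.6 and 7.39 CPM in the JUN knockout libraries. The double knockout libraries lay close together, while the JUN knockout libraries spread from below to well above them. The means were 9.88 ± 0.761 CPM in the double knockout and 13.2 ± 6.16 CPM in the JUN knockout (SD, n = 3 each). The log2 fold change was -0.42 (SE 0.325, edgeR adjusted p = 0.942), and without JUN knockout library 1 it was -0.02.

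The ITGAM result depended on how transcript length was treated. In gene TPM the groups did not overlap, with 2.10, 2.21 and 2.00 TPM in the double knockout libraries and 7.82, 3.55 and 2.50 TPM in the JUN knockout libraries. On long coding transcripts they did overlap, with 1.96, 2.09 and 1.66 TPM in the double knockout libraries and 3.90, 2.33 and 1.32 TPM in the JUN knockout libraries. The difference came from short transcripts with retained introns. ITGAM-206, of 378 bases, had 0 reads in all 3 double knockout libraries and 8.68, 4.66 and 4.27 estimated reads in the JUN knockout libraries, which amounted to 2.31, 1.10 and 1.06 TPM. With transcript length as an offset in edgeR the log2 fold change of ITGAM was -1.10, and it did not pass the threshold there either.

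ITGAX, the CD11c chain, had the fold change furthest from 0 of the 8 when all 6 libraries were used without a length offset. It was at 5.31, 7.09 and 3.68 CPM in the double knockout libraries, against 3.93, 3.27 and 1.54 CPM in the JUN knockout libraries. It was higher in the double knockout library of all 3 pairs with the same number, although double knockout library 3 lay below JUN knockout library 1, so the groups overlapped. The log2 fold change was 0.87 (SE 0.39, edgeR adjusted p = 0.887), with ratios of 0.43, 1.11 and 1.26 within replicate numbers 1, 2 and 3. Without JUN knockout library 3 it was 0.57, and ITGAM, at -0.71, was then further from 0. With the length offset ITGAX was at 1.10 and ITGAM at -1.10. An exact two-sided permutation test of the 6 CPM values gave p = 0.2, where 0.1 is the smallest p that 3 against 3 libraries allow. These levels rest on few reads, 132, 187 and 104 in the double knockout libraries and 107, 91 and 40 in the JUN knockout libraries. Long coding transcripts held 92.7, 113 and 53.7 of them in the double knockout, against 63.8, 62.0 and 33.2 in the JUN knockout. ITGAX-207, with a retained intron, held 33.0, 57.3 and 38.4, against 34.4, 24.5 and 3.16. On long coding transcripts alone, a measure chosen after the data were seen, the log2 fold change was 0.76 (edgeR adjusted p = 0.892).

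Markers of other myeloid cells stand beside the ITGAX values as follows. Of 10 neutrophil markers 4 were tested, all 4 with fold changes above 0, and their list summed to 110.5, 52.8 and 51.1 TPM in the double knockout libraries, against 56.8, 39.7 and 41.4 TPM in the JUN knockout libraries. CSF3R, the G-CSF receptor of the neutrophil lineage, was at 47.0, 32.9 and 37.0 CPM in the double knockout libraries and at 26.5, 25.4 and 25.1 CPM in the JUN knockout libraries, without overlap. DESeq2 called it (log2 fold change 0.60 in edgeR, DESeq2 adjusted p = 0.0489), and edgeR did not (adjusted p = 0.697). Of the neutrophil granule genes, CTSG was at 50.5, 19.3 and 13.1 CPM in the double knockout libraries, against 22.6, 9.97 and 11.4 CPM in the JUN knockout libraries (log2 fold change 0.91, edgeR adjusted p = 0.919). MPO was at 70.2, 35.1 and 49.9 CPM in the double knockout libraries, against 35.8, 42.7 and 48.3 CPM in the JUN knockout libraries (log2 fold change 0.29, edgeR adjusted p = 0.9498). Double knockout library 1 was the highest for both, and the groups overlapped. ELANE, AZU1, PRTN3 and LTF, granule genes too, were at 0 in all libraries. Of 10 monocyte markers 8 were tested, 5 above 0 and 3 below, with sums of 241, 291 and 450.0 TPM in the double knockout libraries and 178, 407 and 388 TPM in the JUN knockout libraries. The part of these markers in the ITGAX values was not tested.

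ITGA4, the alpha chain of VLA-4, was at 444, 547 and 449.8 CPM in the double knockout libraries, against 528, 451 and 446 CPM in the JUN knockout libraries. Double knockout library 2 and JUN knockout library 1 stood highest, and the groups overlapped. Its log2 fold change was 0.02 (SE 0.115, edgeR adjusted p = 0.992).

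ITGA5, the alpha chain of the fibronectin receptor, was the steadiest member. It was at 167, 159 and 159 CPM in the double knockout libraries, against 152, 156 and 146 CPM in the JUN knockout libraries. All 3 double knockout values lay above all 3 JUN knockout values, by little. The means were 162 ± 4.60 CPM in the double knockout and 151 ± 5.19 CPM in the JUN knockout (SD, n = 3 each), with an exact two-sided permutation p of 0.1, the smallest that this design allows. The log2 fold change was 0.10 (SE 0.0715, edgeR adjusted p = 0.939), and with transcript length as an offset it was -0.0058.

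ITGB1, the beta 1 chain, was at 82.0, 88.0 and 62.1 CPM in the double knockout libraries, against 69.4, 54.4 and 61.8 CPM in the JUN knockout libraries. Double knockout libraries 1 and 2 stood above the rest, while double knockout library 3 lay among the JUN knockout libraries. The means were 77.4 ± 13.5 CPM in the double knockout and 61.9 ± 7.53 CPM in the JUN knockout (SD, n = 3 each), and the log2 fold change was 0.32 (SE 0.153, edgeR adjusted p = 0.887). It was higher in the double knockout library of all 3 pairs with the same number, with log2 ratios of 0.24, 0.69 and 0.01. Of the 31-base words in ITGB1 transcripts, 9.64% also occur in other genes, mostly in the pseudogene ITGB1P1. That pseudogene carried 46, 26 and 36 reads in the double knockout libraries and 32, 54 and 30 in the JUN knockout libraries, so the split of reads between the copies is uncertain for a small part of ITGB1.

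ITGB7, the beta 7 chain of gut-homing leukocytes, was at 18.1, 26.9 and 19.8 CPM in the double knockout libraries, against 33.2, 25.6 and 14.9 CPM in the JUN knockout libraries. As for ITGAL and ITGAM, JUN knockout libraries 1 and 3 held the highest and the lowest value. The log2 fold change was -0.19 (SE 0.295, edgeR adjusted p = 0.974), and it was 0.09 without JUN knockout library 1. The transcript ITGB7-201 received 598 estimated reads in JUN knockout library 2 and 0 in the other 5 libraries, which had their reads on ITGB7-202 instead. These transcripts share 95.4% of their 31-base words, and the sum over the gene does not depend on the split.

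**Figure D4:**
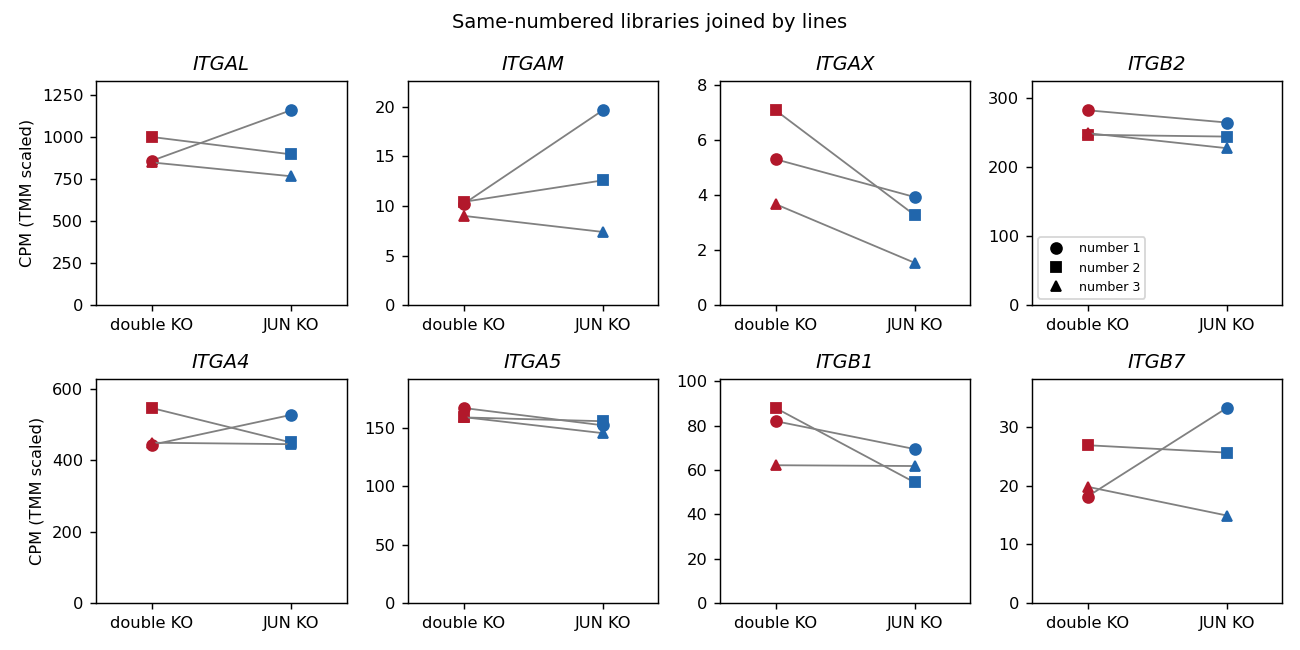
CPM of each leukocyte integrin gene in the ATF3/JUN double knockout (red, left) and the JUN knockout (blue, right), with lines joining libraries of the same replicate number, which share a clone code. The number 1 pair is lower in the double knockout for ITGAL, ITGAM, ITGA4 and ITGB7, while ITGAX, ITGB2, ITGA5 and ITGB1 are higher in the double knockout in 3 of 3 pairs.

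**Figure D5:**
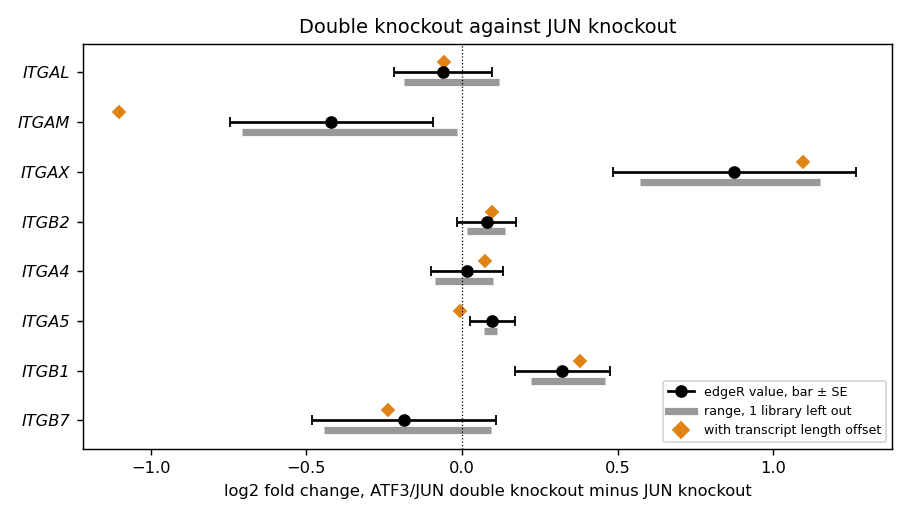
log2 fold change of each member, double knockout minus JUN knockout, from edgeR (black, bars ± SE), with its range when 1 library is left out (grey) and its value with a transcript length offset (orange). ITGAX at 0.87 is the black point furthest from 0, ITGAM reaches -1.10 with the offset, and none passed the threshold.

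Replicate numbers, which stand for the JUN clone codes, were compared in a fit with genotype as the other term. This test called 227 of 12954 genes (1.75%) and 0 of the 8 members. Both number 1 libraries fell in 1 of the 2 library sets described above, both number 3 libraries in the other, and number 2 was split. Differences between numbers 1 and 3 therefore cannot be told apart from that division of the libraries. With all 6 libraries, the spread between the highest and lowest number was largest for ITGAX (1.00 on the log2 scale, edgeR adjusted p = 0.147), ITGAM (0.81, adjusted p = 0.291) and ITGB7 (0.59, adjusted p = 0.512). It was smallest for ITGA5 (0.07, adjusted p = 0.908). Without JUN knockout library 3, ITGAX had 0.79, ITGB1 0.52, ITGAM 0.36 and ITGB7 0.22, so the place of ITGAM and ITGB7 in this order rested on that library. The median spread of the 8 was 0.30, against 0.27 over all genes tested.

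All 8 members had their lowest mean CPM at number 3, beside 40.6% of all genes tested. In each genotype taken alone, this held for ITGAL, ITGAM and ITGAX only. The lowest double knockout value was at number 1 for ITGA4 (444 CPM) and ITGB7 (18.1 CPM). It was at number 2 for ITGB2 (247 CPM) and ITGA5 (158.9 CPM). The lowest JUN knockout value of ITGB1 was at number 2 (54.4 CPM). ITGAX averaged 4.62, 5.18 and 2.61 CPM at numbers 1, 2 and 3, each the mean of 1 library of each genotype. ITGAM averaged 14.9, 11.5 and 8.20 CPM, and ITGB7 25.7, 26.2 and 17.3 CPM. For ITGAL the means were 1009.7, 949.7 and 809 CPM. These differences did not pass the threshold with all 6 libraries. Without double knockout library 1, number 1 rested on JUN knockout library 1 alone. The spreads were then 0.60 for ITGAL, 1.26 for ITGAM, 1.30 for ITGAX and 1.06 for ITGB7. Without JUN knockout library 1, number 1 rested on double knockout library 1 alone, and ITGB7 had a spread of 0.65. Calls of the members in these fits are not given, since number 1 then held 1 library.

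The proteins that switch integrins on and carry their signals had 0 calls between genotypes in edgeR. Of 18 genes of inside-out activation 17 were tested, 10 with a fold change above 0 and 7 below, with a median of 0.05. FLNA, which binds beta chain tails and holds integrins inactive, was at 799, 777 and 804 CPM in the double knockout libraries, against 680.2, 665 and 637 CPM in the JUN knockout libraries. Its groups did not overlap, and DESeq2 called it (log2 fold change 0.26, DESeq2 adjusted p = 0.0146), while edgeR did not (adjusted p = 0.765). FERMT1, a kindlin known from epithelia, differed between replicate numbers (edgeR adjusted p = 0.0493), with 6.19, 7.998 and 12.2 CPM in the double knockout libraries and 4.81, 7.73 and 10.97 CPM in the JUN knockout libraries. Both genotypes had their highest FERMT1 value at number 3.

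Of 24 genes of outside-in signalling 23 were tested, 10 above 0 and 13 below, with a median of -0.01 and 0 called between genotypes by either tool. ZYX, a focal adhesion protein, had the highest mean TPM of this list.

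Ligands were few. Of 17 genes for integrin ligands and counter-receptors 8 were tested, 6 above 0 and 2 below, with a median of 0.19, and 10 stayed under 1 TPM in every library. ICAM3, a ligand of LFA-1 on leukocytes themselves, had the highest mean TPM, with 60.6, 39.5 and 36.8 CPM in the double knockout libraries, against 61.8, 31.4 and 15.1 CPM in the JUN knockout libraries. JUN knockout library 3 was lowest and the groups overlapped. VCAM1, the endothelial ligand of VLA-4, was at 0 in all 6 libraries. None of the list was called between genotypes or between numbers.

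Membrane proteins that sit beside integrins gave 11 tested of 12, with 4 above 0, 7 below and a median of -0.02. SLC3A2 (CD98), which binds beta 1 tails, was at 434, 358 and 249.8 CPM in the double knockout libraries, against 451, 372 and 293 CPM in the JUN knockout libraries, and differed between numbers (edgeR adjusted p = 0.0327). CD81, a tetraspanin partner of VLA-4, was at 59.7, 54.3 and 111 CPM in the double knockout libraries, against 49.2, 56.2 and 123 CPM in the JUN knockout libraries. It also differed between numbers (edgeR adjusted p = 0.00939). SLC3A2 was lowest and CD81 highest at number 3 in both genotypes. Of 10 genes for selectins and other leukocyte adhesion molecules 7 were tested, 3 above 0 and 4 below, with a median of -0.04, and CD44, a hyaluronan receptor, was the most abundant.

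Among 16 genes of integrin trafficking and folding 13 were tested, 9 above 0 and 4 below, with a median of 0.05. CNPY3, an endoplasmic reticulum chaperone, was at 144, 149 and 148 CPM in the double knockout libraries, against 171, 175 and 171 CPM in the JUN knockout libraries. The groups did not overlap, and DESeq2 called it (log2 fold change -0.23, DESeq2 adjusted p = 0.0388), while edgeR did not (adjusted p = 0.789). Whether CNPY3 acts on integrin chains was not examined here. MYO10, a myosin that carries integrins into filopodia, was at 1.77, 6.41 and 7.03 CPM in the double knockout libraries, against 1.95, 5.90 and 6.89 CPM in the JUN knockout libraries. It was low at number 1 in both genotypes and differed between numbers (edgeR adjusted p = 0.0162).

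Of 14 myeloid transcription factors known to act on integrin genes 13 were tested, 11 above 0 and 2 below, with a median of 0.08 and 0 called between genotypes. CEBPB, a leucine zipper factor of myeloid maturation, was at 62.2, 49.1 and 28.1 CPM in the double knockout libraries, against 69.8, 42.5 and 22.7 CPM in the JUN knockout libraries. It differed between numbers (edgeR adjusted p = 0.00998), highest at number 1 and lowest at number 3 in both genotypes. MYB, a factor of immature blood cells, had the highest mean TPM of the list. CTSG (adjusted p = 0.0427) and FCGR1A (adjusted p = 0.0257), markers of neutrophil precursors and of monocytes, also differed between numbers in edgeR, and both had lower values at number 3 than at number 1 in each genotype.

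Genes with the profile most like a member were looked up for the 3 members whose log2 CPM ranged over at least 1. Likeness was the root mean square difference of centred log2 CPM over the 6 libraries, among 9737 genes with a mean of at least 5 CPM. For ITGAM, which ranged over 1.41, the closest were SYT11 (0.119) and SGCB (0.135). For ITGAX, which ranged over 2.20, IL21R (0.201) was close. IL21R, a cytokine receptor chain, was at 33.3, 33.7 and 19.5 CPM in the double knockout libraries, against 25.2, 21.9 and 10.97 CPM in the JUN knockout libraries. For ITGB7, which ranged over 1.16, they were CBLB (0.114) and SOCS7 (0.118). CBLB, a ubiquitin ligase, was at 28.7, 33.2 and 25.4 CPM in the double knockout libraries, against 43.8, 33.4 and 20.4 CPM in the JUN knockout libraries. With 6 libraries and this many candidates, close profiles are a description only.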

How the data were processed

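Polyadenylated RNA of 6 EoL-1 samples was sequenced with a stranded mRNA kit, per the labels' protocols. Per the submitters' processing notes, the authors worked on the build hg38 with Salmon 1.6.0 and FastQC 0.11.9. Each deposited file lists 177456 transcripts with the estimated count and the TPM of each, per the file headers. Salmon shares out reads that fit several transcripts, so transcripts with common sequence can trade reads.

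Transcripts were joined to GENCODE release 29 by identifier without version. The 10429 without a match held 3.58% to 3.71% of a library's reads and were not used. Gene values are sums over transcripts, rounded to whole numbers for counts and left as they were for TPM. The closest pair of libraries gave a chi-square of 12.5 per gene, so all 6 were kept.

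edgeR 4.0.16 (R 4.3.3) was run on 12954 genes with filterByExpr, TMM scaling, robust dispersion and the quasi-likelihood F test, two-sided, with Benjamini-Hochberg adjustment over all genes at 0.05. The SE is the size of the log2 fold change over the square root of F. CPM is TMM scaled. Replicate numbers were tested in a fit with genotype and number as terms. DESeq2 1.42.0 and limma 3.58.1 were alternatives, with RLE or no scaling, other filters, a length offset, a replicate block and libraries left out. The procedure was also run on simulated counts, and the outcome is not given here.

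The number was taken as pairing the genotypes because file names give same-numbered libraries the same clone code. As a check, same-numbered libraries were compared by their deviations from their group's mean, which gave correlations of 0.41, 0.09 and 0.57. The members and the 16 lists with 203 genes were chosen with earlier results of these data known. Named were the 8 members, in each list the genes past a test (at most 3 of lowest p) or else the one of highest mean TPM, and the 2 nearest profiles of members ranging over at least 1 on the log2 scale. Genes named for DESeq2 calls, the zero markers and further chains were chosen after their values were seen. Some genes that fall under these rules are not reported here. Protein sequences were not used here.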

Additional observations from a re-analysis of the deposited data

How the results depend on the processing

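Over 144 alternative values of the members' fold changes (18 for each of 8), 0 passed the threshold, 135 kept their direction and 9 changed it. With 1 library left out, ITGAX ranged over 0.57 to 1.1505, ITGAM over -0.71 to -0.016, ITGAL over -0.19 to 0.12, ITGB7 over -0.44 to 0.093 and ITGA4 over -0.087 to 0.10. ITGAL and ITGB7 were above 0 without JUN knockout replicate 1, and ITGA4 below 0 without JUN knockout replicate 2 or 3 (-0.027 and -0.026) or double knockout replicate 2. Without both libraries of number 1, ITGAL was at 0.15 and ITGB7 at 0.20, and without both of number 2 ITGA4 was at -0.13. ITGA5 was at -0.0058 with a transcript length offset. The count of genes called between genotypes was 71 with DESeq2, 4 with limma-voom, 1 without a filter on low counts and 1 without both libraries of number 3, beside 0 in edgeR, and 0 in each fit with 1 library left out. With the replicate number as a block, 0 genes were called and no call changed, while 2 members, ITGAX and ITGB1, had an unadjusted p under 0.05, against 0 without the block. For replicate numbers, the count was 227, against 686 without the filter, 61 with the length offset and 905 with DESeq2, and 141 to 2634 with 1 library left out. Without double knockout replicate 1, spreads became 0.60 for ITGAL, 1.26 for ITGAM, 1.30 for ITGAX and 1.06 for ITGB7. Without JUN knockout replicate 1, ITGB7 had a spread of 0.65. Without JUN knockout replicate 3, spreads were lower, at 0.17 for ITGAL, 0.36 for ITGAM, 0.79 for ITGAX and 0.22 for ITGB7. In each of these fits 1 number rested on 1 library, so calls of the members are not given. The causes of these changes were not tested. RLE scaling moved the median of all genes by -0.0049 and no TMM by -0.0066. In the order of levels, 6 to 8 of 8 ranks were kept, ITGB2 and ITGA4 changing places. Few reads limit ITGAX most, at 40 to 187 per library.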
